A study of Mus musculus with 12 samples.

Results

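The genes described here take up glucose, break it down, export lactate or take part in the response to low oxygen. They are 36 genes chosen by symbol, out of 25230 in the deposited table. Of these, 24 cover glucose transport, glycolysis, lactate transport and the enzymes that set glycolytic flux. The other 12 are genes of the hypoxia-inducible factor (HIF) pathway and further genes known to be induced by low oxygen. A gene was tested where at least 3 of the 12 libraries reached 1 TPM (a transcript abundance scaled to gene length and to the same total in each library), and 35 of the 36 did so. The member just inside this limit was Aldoc, a brain-type aldolase gene, at 0.521 to 2.18 TPM. Adm, encoding the vessel-dilating peptide adrenomedullin, was just outside it at 0 to 1.5 TPM and was not tested. The labels name no change in oxygen, so hypoxia-inducible states what these genes are known for and not a condition of the cells.

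The cells were mouse macrophages derived from bone marrow, whose poly(A) RNA was sequenced. They were grown with M-CSF at 50 ng per ml for 8 days. Wild-type cells and Piezo1 knockout cells, which by label lack a mechanically gated cation channel, each received PBS or the fungus Candida albicans. Each of these 4 groups has 3 libraries, which makes 12. The series asks how Piezo1 bears on the macrophage response to the fungus. The labels do not give the dose of fungus, the hours of exposure, the age of the mice, or the allele or promoter behind the knockout. Knockout libraries labelled as treated with PBS carry DMSO in their titles, so vehicle and genotype cannot be told apart in them. Whether replicates are separate mice or cultures is not stated, so every p-value measures only the spread between these libraries, which may be technical. In bulk RNA, fewer cells expressing a gene and less RNA per cell cannot be told apart.

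Glycolysis turns glucose into pyruvate in the cytosol and yields ATP without oxygen, and lactate dehydrogenase and lactate export keep it running. HIF-1 is a transcription factor whose alpha subunit, encoded by Hif1a, is hydroxylated by the EGLN prolyl hydroxylases in the presence of oxygen and then marked for destruction by the VHL protein. Macrophages activated by microbial products are known to shift towards glycolysis, and HIF-1 is known to raise glucose transporter and glycolytic enzyme genes in them.

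HIF binds a short core, written ACGTG or GCGTG, in the promoters of many target genes. The promoters below are those of the 3 members with the highest rise in wild type (Slc2a6, Slc2a1 and Egln3), of Hif1a itself, and of the 2 with the deepest fall among members that passed (Ldhb and Slc16a1). Each is the 250 bases before 1 RefSeq transcription start in GRCm38.p6, read 5′ to 3′ along the gene. For some members, Hif1a, Ldha, Gapdh and Pfkfb4 among them, that start lies inside the full span of the gene. Counts of cores hold for the start used, and other starts were not scanned. The capitals mark either core on either strand.
Slc2a6 (chr2:27027999-27028248, minus strand): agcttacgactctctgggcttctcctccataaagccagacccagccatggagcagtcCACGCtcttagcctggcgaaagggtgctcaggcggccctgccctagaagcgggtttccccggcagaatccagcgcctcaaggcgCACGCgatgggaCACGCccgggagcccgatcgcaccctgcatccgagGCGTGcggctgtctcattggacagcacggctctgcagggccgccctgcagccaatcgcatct
Slc2a1 (chr4:119108495-119108744, plus strand): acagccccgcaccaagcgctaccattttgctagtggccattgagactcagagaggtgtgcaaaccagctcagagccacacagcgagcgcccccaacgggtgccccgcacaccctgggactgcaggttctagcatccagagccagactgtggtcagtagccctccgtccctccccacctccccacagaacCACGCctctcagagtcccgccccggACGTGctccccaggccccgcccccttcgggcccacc
Egln3 (chr12:54203875-54204124, minus strand): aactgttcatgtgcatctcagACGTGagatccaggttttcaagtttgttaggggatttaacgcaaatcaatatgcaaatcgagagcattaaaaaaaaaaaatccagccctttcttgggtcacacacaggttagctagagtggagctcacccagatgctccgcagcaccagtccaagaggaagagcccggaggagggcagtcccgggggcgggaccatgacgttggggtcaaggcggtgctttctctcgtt
Hif1a (chr12:73907617-73907866, plus strand): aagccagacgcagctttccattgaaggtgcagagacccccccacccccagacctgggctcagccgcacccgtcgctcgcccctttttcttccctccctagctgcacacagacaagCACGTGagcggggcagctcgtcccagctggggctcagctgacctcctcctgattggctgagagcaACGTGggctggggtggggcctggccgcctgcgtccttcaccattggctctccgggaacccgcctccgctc
Ldhb (chr6:142507958-142508207, minus strand): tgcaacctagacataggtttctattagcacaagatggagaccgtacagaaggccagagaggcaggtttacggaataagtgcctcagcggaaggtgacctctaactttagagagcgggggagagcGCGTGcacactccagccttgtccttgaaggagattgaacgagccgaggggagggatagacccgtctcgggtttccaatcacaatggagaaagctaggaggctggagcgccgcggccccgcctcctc
Slc16a1 (chr3:104638414-104638663, plus strand): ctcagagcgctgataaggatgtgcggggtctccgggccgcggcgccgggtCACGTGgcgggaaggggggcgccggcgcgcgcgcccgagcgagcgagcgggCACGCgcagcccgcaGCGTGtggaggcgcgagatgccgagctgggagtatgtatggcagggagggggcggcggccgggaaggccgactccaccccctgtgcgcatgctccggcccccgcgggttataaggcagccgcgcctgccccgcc
Either core stood in these windows of 27 of the 35 members with a RefSeq promoter (77.1%), against 57.5% of the 8977 tested genes with one. ACGTG alone stood in 17 members (48.6%), against 22.6% of tested genes. Cores on opposite strands can overlap, as in CACGTG, and each was then counted. The windows of the members had a median GC content of 62.8%, against 59.6% for tested genes. All 6 promoters shown hold at least 1 core, those of the genes that fell included: Slc16a1 held 4 and Ldhb held 1. Ldha held 5 copies of ACGTG and Bnip3 held 5 cores in all, while none was found for Hk1, Gpi1, Aldoa, Tpi1, Pkm, Vhl, Vegfa and Mif. A match says only that the letters are there. Ndrg1 was not matched, and the 35 members counted here include Adm, which was not tested. Members were chosen by known role, hypoxia-inducible genes among them, so these shares are no separate evidence of HIF action.

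Reads in genes ranged from 16400119 to 25741091 per library. Piezo1 stood at 48.6% of its wild-type mean in knockout libraries with PBS and at 47.4% with C. albicans. All 8 macrophage markers were at 1 TPM or more in every library, and summed to 25731 to 26277 TPM in wild-type PBS and to 15425 to 15664 TPM in knockout PBS libraries. With C. albicans they summed to 21935 to 23370 TPM in wild type and 15969 to 16078 TPM in the knockout. Lyz2, the macrophage lysozyme gene, carried about all of that difference, at 46.2% of wild type with PBS and 58.0% with C. albicans. Its mean was 19698 TPM in wild-type and 9099 TPM in knockout PBS libraries, and 16258.5 and 9432 TPM with C. albicans. Markers of neutrophils summed to at most 8.14 TPM in any library, those of T and NK cells to at most 1.86 and those of B cells to at most 4.18. Neutrophil markers were higher with C. albicans in wild type (6.56 to 8.14 TPM) than with PBS (2.21 to 2.75 TPM), while in the knockout they summed to 3.06 to 5.26 TPM with C. albicans and 4.19 to 5.63 TPM with PBS, and 2 of the 8 were at 0 throughout. The part of these markers in the results below was not tested. Replicate 1 of wild-type C. albicans differed in its counts from replicates 2 and 3 (chi-square divided by its degrees of freedom, 16.2 and 15.3). The other pairs of replicates gave 1.49 to 4.60. Results are therefore also given without it.

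In wild-type macrophages C. albicans moved the members in both directions. Differences were tested with limma, a linear model over all genes, on log2(TPM + 1), and passed where the p-value adjusted over all genes was under 0.05; a log2 fold change of 1 is a doubling on that scale. In wild type 18 of the 35 tested members passed, where 44.4% of all genes did. Of these, 8 rose (16.1% of all 11283 tested genes did) and 10 fell (28.3% of all). The rises were those of both glucose transporters, Hif1a, Egln3, Ndrg1, Bnip3, Pgk1 and Pkm, and most of the falls were small. In the knockout 2 members passed (7.08% of all genes): Slc2a6 rose (3.94% of all rose) and Gpi1 fell (3.14% of all). The difference between these responses, the interaction (the knockout's log2 fold change less that of wild type), passed for 6 members, with 13.9% of all genes: it was below 0 for Slc2a1, Hif1a, Egln3 and Ndrg1 (6.33% of all genes) and above 0 for Gpi1 and Pfkfb3 (7.52%). The median log2 fold change of the members was -0.01 in wild type and -0.04 in the knockout, and that of all tested genes was -0.07 and -0.04. With median-ratio scaling of the libraries in place of TPM, the counts in wild type became 12 rises and 5 falls (22.8% and 18.3% of all genes), and the share of rises among all called genes went from 36.2% to 55.5%. The 2 groups of libraries did not overlap for 22 of the 35 members in wild type (50.9% of all genes) and for 18 in the knockout (33% of all). The plot of responses by genotype gives both responses side by side.

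**Figure D1:**
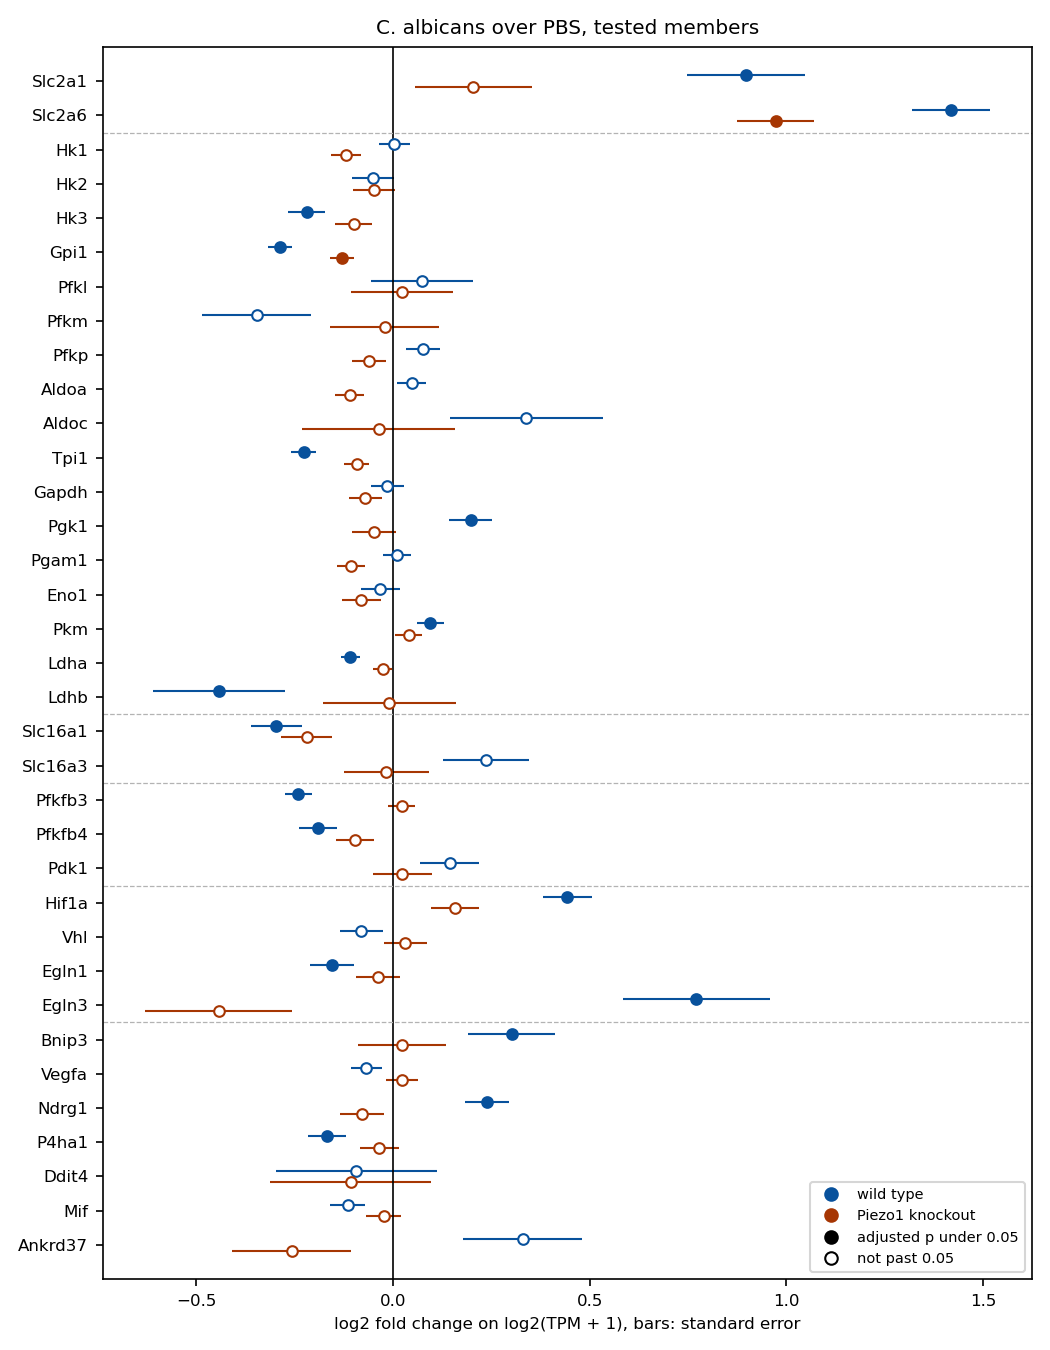
The x axis is the log2 fold change of C. albicans over PBS on the log2(TPM + 1) scale, with standard error bars, for the 35 tested members, in wild type (blue) and in the Piezo1 knockout (brown). Filled points passed an adjusted p of 0.05 and dashed lines separate the roles; in wild type 8 filled points lie right of 0 and 10 left, in the knockout 1 on each side.

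With PBS, 14 members differed between knockout and wild type (32.3% of all genes did), 7 above wild type (6.14% of all) and 7 below (26.1%). Those above were Aldoa, Pgk1, Ldha, Gapdh, Pgam1, Mif and Vegfa, and those below were Pfkfb3, Hk2, Slc2a6, Hif1a, P4ha1, Vhl and Pfkfb4. With C. albicans 16 differed (39.9% of all), 6 above (12.4%) and 10 below (27.5%), and those below included Slc2a6, Slc2a1, Egln3, Hif1a, Ankrd37, Hk2, Ndrg1 and Pfkfb3. The groups did not overlap for 19 members with PBS and 17 with C. albicans (46.1% and 49.3% of all genes). Scaling sets much of the split with PBS. Median-ratio factors gave 11 above and 3 below (14.2% and 14.1% of all genes), and upper-quartile factors, which moved the median of all genes by 0.105 on the log2 scale, gave 12 and 3 (16.2% and 12.6%). With C. albicans the counts were 7 and 9 with median-ratio factors (19.3% and 21.8% of all) and 13 and 8 with upper-quartile factors (25% and 18%). Median-ratio factors gave larger PBS differences for Gapdh (0.23 in place of 0.13), Pgam1 (0.23 for 0.13), Ldha (0.24 for 0.15), Mif (0.28 for 0.18) and Vegfa (0.23 for 0.13), on the log2 scale. Removing each library's trend with gene length left 3 above and 5 below with PBS (3.09% and 21.8% of all genes), as Pgk1, Gapdh, Pgam1, Mif, Hif1a and Pfkfb4 no longer passed. That step also gave smaller differences with C. albicans for Tpi1 (0.09 in place of 0.20), Ldha (0.14 for 0.23) and Mif (0.13 for 0.27) and a larger one for Vegfa (0.35 for 0.22), all still past the threshold. The plot of knockout over wild type shows these values for every tested member.

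**Figure D2:**
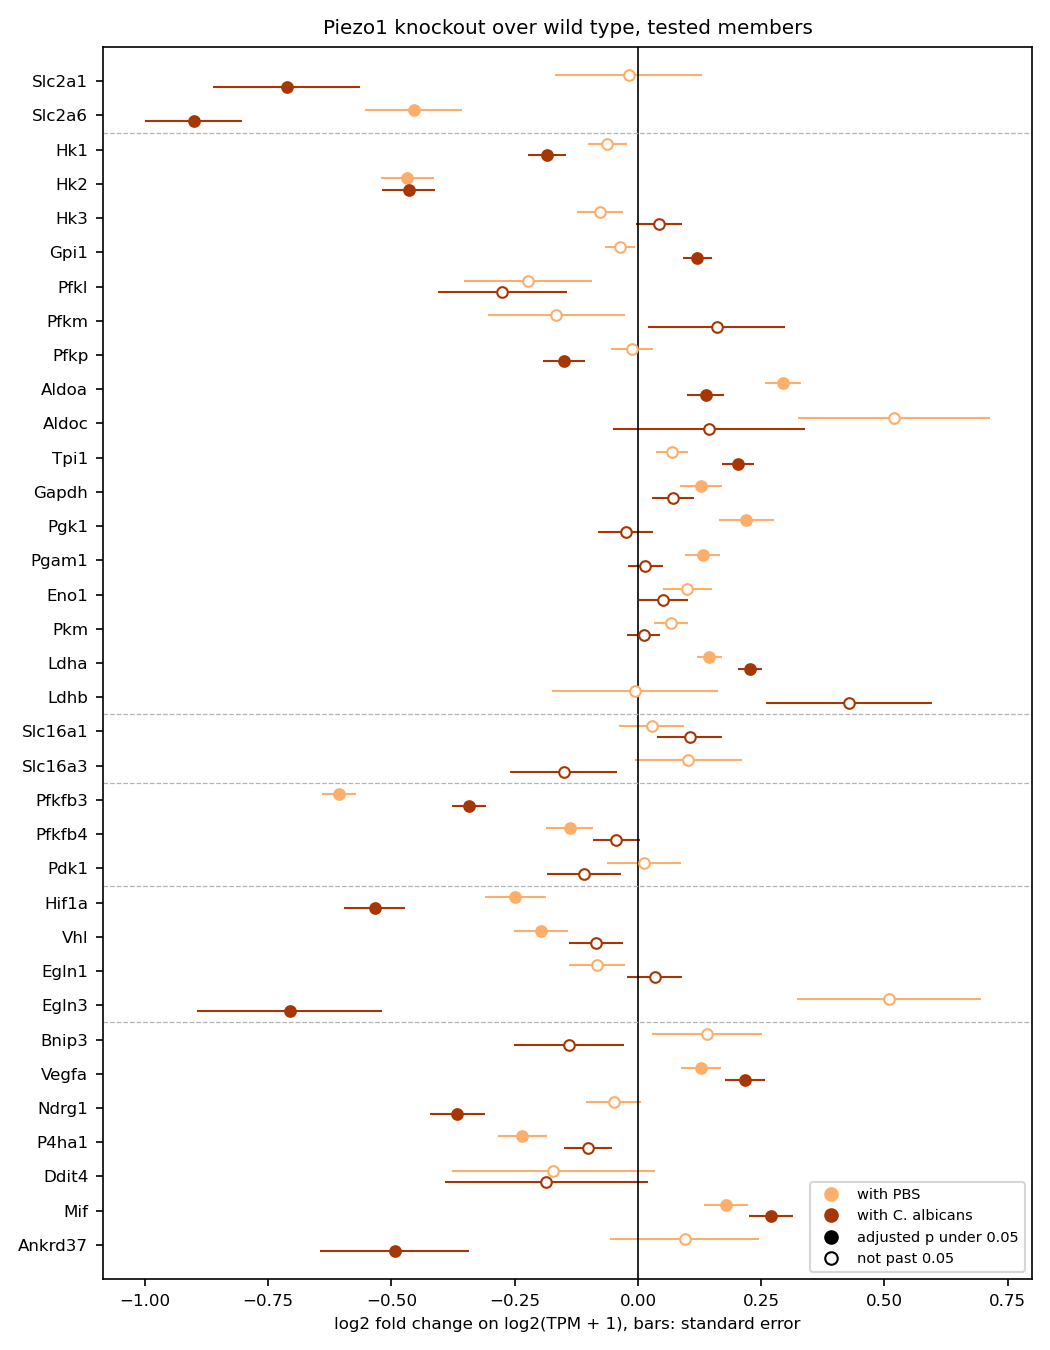
The x axis is the log2 fold change of Piezo1 knockout over wild type on the log2(TPM + 1) scale, with standard error bars, for the 35 tested members, with PBS (light orange) and with C. albicans (brown). Filled points passed an adjusted p of 0.05; Pfkfb3, Hk2 and Slc2a6 are filled on the left of 0 with either treatment, and Aldoa, Ldha, Mif and Vegfa on the right.

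Of the glucose transporters, Slc2a6 (chromosome 2, 27021363 to 27028000 in GRCm38) encodes GLUT6, a transporter of intracellular membranes known to be raised in activated macrophages. It stood at 15.01, 15.7 and 16.9 TPM in wild-type PBS libraries and at 36.2, 47.7 and 49.4 TPM with C. albicans. Knockout cells gave 10.3, 12.1 and 11.6 TPM with PBS and at 22.8, 23.1 and 23.4 TPM with C. albicans. The groups do not overlap in any of these comparisons, and Slc2a6 was the one member that rose in both genotypes. The log2 rise was 1.42 in wild type (SE 0.10, adjusted p = 2.08e-07) and 0.97 in the knockout (SE 0.10, adjusted p = 2.92e-05). The difference of -0.45 between the responses just missed the threshold (adjusted p = 0.0508), and passed at -0.58 without wild-type C. albicans replicate 1. With the length trend removed and all 12 libraries it passed at -0.45. Knockout cells were lower with PBS (log2 fold change -0.46, adjusted p = 0.00368) and with C. albicans (-0.90, adjusted p = 1.76e-05).

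Slc2a1 (chromosome 4, 119108745 to 119137330) encodes GLUT1, the main glucose transporter of the plasma membrane in macrophages. Its level was 44.2, 42.6 and 43.7 TPM in wild-type PBS libraries and 57.8, 97.1 and 97.6 TPM with C. albicans. Knockout libraries gave 42.8, 46.1 and 39.9 TPM with PBS and 46.9, 52.2 and 49.8 TPM with C. albicans. All 3 wild-type C. albicans libraries lay above every other library, and replicate 1 lay far below the other two. Slc2a1 had a log2 rise of 0.90 in wild type (SE 0.15, adjusted p = 0.000395), or 1.14 without that library. In the knockout its log2 fold change was 0.20 (SE 0.15, adjusted p = 0.446), which passed without wild-type C. albicans replicate 1 (adjusted p = 0.024), as the spread shared by the groups was then smaller. With C. albicans it was 0.71 lower than in wild type (log2 fold change -0.71, adjusted p = 0.00218). The interaction was -0.69 (SE 0.21, adjusted p = 0.0464) and passed at -0.94 without wild-type C. albicans replicate 1. Leaving out any of the other 11 libraries ended that call, with adjusted p of 0.0611 to 0.107, as did upper-quartile factors, no filter, no variance trend or a robust fit (0.0596 to 0.105).

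**Figure D3:**
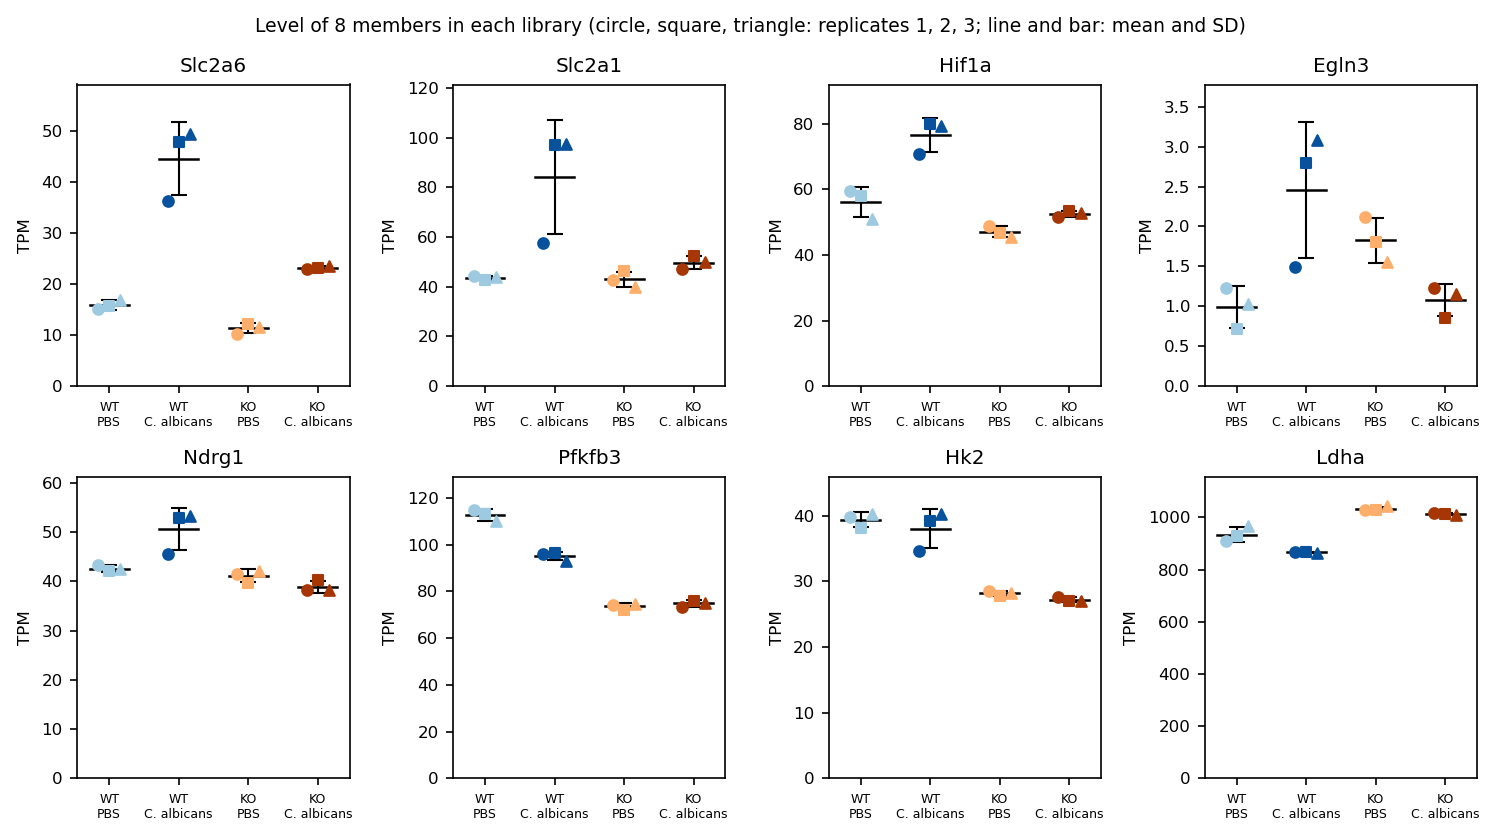
TPM (y axes, from 0) of 8 members in each of the 12 libraries, by genotype and treatment; points are libraries (circle, square and triangle for replicates 1, 2 and 3), and the line and bar are the mean and SD of 3. Slc2a1, Hif1a, Egln3 and Ndrg1 have their highest mean in wild type with C. albicans, with replicate 1 lowest of its group in each, while Pfkfb3 and Hk2 are lower in all 6 knockout libraries than in all 6 of wild type.

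The summed level of the 17 glycolytic enzyme genes was 6748 to 7990 TPM, or 0.675% to 0.799% of all TPM. It averaged 7271 ± 166 TPM (SD, n = 3) in wild-type PBS, 7159 ± 356 in wild-type C. albicans, 7932 ± 51.1 in knockout PBS and 7596 ± 48.4 in knockout C. albicans libraries. Per length, Gapdh (1333 TPM in wild-type PBS), Aldoa (1146), Pkm (1059.8) and Ldha (934) were the highest, followed by Tpi1 (634), Eno1 (537) and Pgam1 (490.1). Pfkm (5.97), Ldhb (6.38) and Aldoc (0.634) were the lowest of the enzymes. In wild type 2 of the 17 enzymes rose with C. albicans and 5 fell, where 16.1% of all genes rose and 28.3% fell, and their median log2 fold change was -0.01, beside -0.07 for all genes. With median-ratio factors 4 rose and 3 fell (22.8% and 18.3% of all genes) and the median was 0.07. In the knockout none rose and 1 fell (3.94% and 3.14% of all genes), with a median of -0.06. In wild type, fold changes of these genes were small beside those of the 2 glucose transporters.

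Hexokinases trap glucose in the cell as glucose 6-phosphate. Hk3, the form found in myeloid cells, made up 73.95% to 80.1% of the summed hexokinase TPM in each library. It fell in wild type with C. albicans, from 314 ± 15.3 to 269.6 ± 18.4 TPM (log2 fold change -0.22, SE 0.05, adjusted p = 0.00221; -0.14 with median-ratio factors). Hk2, the inducible form that binds mitochondria, stood at 39.8, 38.1 and 40.2 TPM in wild-type PBS and 34.6, 39.3 and 40.3 TPM in wild-type C. albicans libraries. Knockout cells gave 28.6, 27.8 and 28.2 TPM with PBS and 27.7, 27.1 and 27.0 TPM with C. albicans. Every knockout library lay below every wild-type library, whatever the treatment. The log2 fold change of knockout over wild type was -0.47 with PBS (adjusted p = 5.45e-05, SE 0.05) and -0.46 with C. albicans (adjusted p = 2.78e-05, SE 0.05). The fungus itself gave Hk2 a log2 fold change of -0.05 in either genotype (adjusted p = 0.472 and 0.645), and the interaction was 0.00. Hk1, the housekeeping form, stood at 48.4, 50.0 and 51.5 TPM in wild type and 43.3, 44.6 and 43.6 TPM in the knockout with C. albicans (log2 fold change -0.18, adjusted p = 0.00225), without overlap. With upper-quartile factors that difference was -0.08 and did not pass.

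The 2 isomerases of the pathway fell in wild type. Gpi1, glucose 6-phosphate isomerase, stood at 295, 298 and 306 TPM in wild-type PBS and 244, 243 and 249.6 TPM in wild-type C. albicans libraries. Knockout libraries gave 294, 283 and 299.9 TPM with PBS and 265, 271 and 264 TPM with C. albicans. The groups did not overlap in either genotype, and wild type went lower. The fall was 0.29 on the log2 scale in wild type (log2 fold change -0.29, SE 0.03, adjusted p = 8.84e-06) and 0.13 in the knockout (-0.13, SE 0.03, adjusted p = 0.0197), and the interaction was 0.16 (adjusted p = 0.0275). The knockout call was lost without knockout PBS replicate 1 or 3 or knockout C. albicans replicate 1 or 3 (adjusted p 0.0760 to 0.1004), without the variance trend, and with either other scaling (-0.09 and -0.10). The interaction call was lost on leaving out any of 7 libraries (wild-type PBS replicates 2 and 3, wild-type C. albicans 2, knockout PBS 1 and 2, knockout C. albicans 1 and 2), with values of 0.13 to 0.16 and adjusted p of 0.0533 to 0.0693, without the variance trend, and with median-ratio factors (0.12). Tpi1, triosephosphate isomerase, stood at 627, 620.3 and 656 TPM in wild-type PBS and 519, 556 and 552 TPM in wild-type C. albicans libraries. Its knockout libraries read 659, 678 and 659.8 TPM with PBS and 619, 623 and 630.1 TPM with C. albicans. It fell in wild type (log2 fold change -0.23, adjusted p = 0.000111; -0.15 with median-ratio factors), and the knockout was higher with C. albicans (0.20, adjusted p = 0.00028). Of the phosphofructokinases, which commit sugar to glycolysis, Pfkp was the most abundant (43.1 to 50.8 TPM) and Pfkl followed (25.6 to 40.3 TPM). Pfkp was lower in the knockout with C. albicans (log2 fold change -0.15, adjusted p = 0.0132), a call lost without wild-type or knockout C. albicans replicate 2 (-0.13 in each case), with median-ratio (-0.09) or upper-quartile factors (-0.05) and with the length trend removed (-0.11). Pfkl differed by -0.27 there (adjusted p = 0.113), and by -0.48 and past the threshold without wild-type C. albicans replicate 1.

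Aldoa, aldolase A, stood at 1124, 1136 and 1178 TPM in wild-type PBS and 1406, 1389 and 1422 TPM in knockout PBS libraries. With C. albicans it read 1104, 1235 and 1219 TPM in wild type and 1293, 1307 and 1309 TPM in the knockout. All 6 knockout libraries lay above all 6 of wild type, with a log2 fold change of 0.29 with PBS (adjusted p = 9.69e-05, SE 0.04) and 0.14 with C. albicans (adjusted p = 0.0101, SE 0.04; 0.24 with upper-quartile factors). Without wild-type C. albicans replicate 1 the latter was 0.09 (adjusted p = 0.00908), and with the length trend removed it was 0.05 and did not pass. Among the enzymes of the later steps, Gapdh, the dehydrogenase often used as a reference gene, stood at 1326, 1309 and 1364 TPM in wild-type PBS and 1208, 1373 and 1386 TPM in wild-type C. albicans libraries. Knockout cells gave 1444, 1467 and 1457 TPM with PBS and 1363, 1404 and 1394 TPM with C. albicans. Gapdh moved by -0.01 with C. albicans in wild type (adjusted p = 0.805), and in the knockout with PBS was 0.13 higher (adjusted p = 0.037). That call was lost without wild-type PBS replicate 1 or 2 or any 1 of the knockout PBS libraries (0.11 to 0.13, adjusted p 0.0716 to 0.114), and the value was 0.03 once the length trend was removed.

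Pgk1, phosphoglycerate kinase and the first ATP-yielding enzyme of the pathway, rose in wild type from 341 ± 2.43 to 393 ± 40.2 TPM (log2 fold change 0.20, adjusted p = 0.012). Its 3 C. albicans values were 346, 417 and 415 TPM, and without replicate 2 or 3 the value was 0.15 and did not pass, nor did a fit to the wild-type libraries alone. Pgam1, phosphoglycerate mutase, stood at 485, 489 and 497 TPM in wild-type PBS and 462, 511 and 508 TPM in wild-type C. albicans libraries. Knockout libraries read 538, 532 and 540.5 TPM with PBS, above those of wild type (log2 fold change 0.13, adjusted p = 0.0126), and 496, 498 and 501 TPM with C. albicans. Pkm, pyruvate kinase of the M type, stood at 1046, 1047 and 1087 TPM in wild-type PBS and 1063, 1168 and 1167 TPM in wild-type C. albicans libraries, and these overlapped. Knockout cells gave 1107, 1099.9 and 1123 TPM with PBS and 1145, 1138 and 1139 TPM with C. albicans. Its rise of 0.09 in wild type (SE 0.03, adjusted p = 0.0381) was lost without any 1 of 8 libraries (wild-type PBS 1 and 2, wild-type C. albicans 2 and 3, knockout PBS 1, any knockout C. albicans), at 0.07 to 0.09, and with no filter, no variance trend or the wild-type libraries alone, and was 0.18 with median-ratio factors. Eno1, enolase 1, moved by -0.03 in wild type (adjusted p = 0.625). Some of these genes have near-identical copies, and how reads were split between them was not tested. Eno1b stood at 29.7 to 39.8 TPM and the Gapdh pseudogene Gm12070 at 14.4 to 24.6 TPM, so small differences of Eno1 and Gapdh are uncertain.

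Lactate dehydrogenase regenerates the NAD that glycolysis needs. Ldha, the muscle-type subunit, held 99.26% to 99.62% of the summed Ldha and Ldhb level in each library. It stood at 909.8, 927 and 965 TPM in wild-type PBS and 868, 865 and 864 TPM in wild-type C. albicans libraries. In the knockout it stood at 1028, 1028 and 1041 TPM with PBS and 1018, 1014 and 1009.8 TPM with C. albicans. Every knockout library was above every wild-type library, and wild-type C. albicans libraries were the lowest. The fall in wild type was 0.11 (log2 fold change -0.11, SE 0.02, adjusted p = 0.00334), and no longer past the threshold with median-ratio (-0.03) or upper-quartile factors (-0.07). Ldha was higher in the knockout by 0.15 with PBS (adjusted p = 0.000782) and by 0.23 with C. albicans (adjusted p = 1.68e-05). Ldhb, the heart-type subunit, fell from 6.38 ± 0.545 to 4.50 ± 1.17 TPM in wild type (log2 fold change -0.44, SE 0.17, adjusted p = 0.0481). With 35 to 109 reads per library, its call was lost on leaving out any of 8 libraries (wild-type PBS 1, 2 and 3, wild-type C. albicans 2 and 3, knockout PBS 1 and 2, knockout C. albicans 1), at -0.28 to -0.50, and with median-ratio (-0.37) or upper-quartile factors (-0.41), no filter, no variance trend, a replicate block or the wild-type libraries alone.

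Of the lactate transporters, Slc16a3 encodes MCT4, the exporter of glycolytic cells, and Slc16a1 encodes MCT1. Slc16a1 stood at 11.3, 12.4 and 11.3 TPM in wild-type PBS and 9.17, 9.64 and 9.12 TPM in wild-type C. albicans libraries. Knockout libraries read 11.6, 11.3 and 12.9 TPM with PBS and 10.3, 10.4 and 9.61 TPM with C. albicans. Slc16a1 fell in wild type (log2 fold change -0.30, SE 0.07, adjusted p = 0.00283), and its value in the knockout was -0.22 (adjusted p = 0.0638). Slc16a3 gave 51.3, 54.6 and 59.5 TPM in wild-type PBS and 51.4, 70.5 and 75.7 TPM in wild-type C. albicans libraries, so replicate 1 lay within the PBS range. Its log2 fold change in wild type was 0.24 (adjusted p = 0.0954), and 0.40 and past the threshold without that replicate. With all libraries it passed at 0.32 with median-ratio factors, and was 0.28 and did not pass with upper-quartile factors. The authors' deposited table calls Slc16a3 higher (0.34). In the knockout Slc16a3 moved by -0.02 (adjusted p = 0.948).

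Of the 3 regulators of flux, 2 fell in wild type (28.3% of all genes did) and none passed in the knockout (7.08% of all genes did). Pfkfb3 makes fructose 2,6-bisphosphate, the strongest activator of phosphofructokinase, and is a known HIF target. It stood at 115, 113 and 109.9 TPM in wild-type PBS and 95.8, 96.5 and 93.1 TPM in wild-type C. albicans libraries. In the knockout it stood at 74.3, 72.0 and 74.7 TPM with PBS and 73.3, 76.1 and 75.1 TPM with C. albicans. The 6 knockout libraries formed 1 narrow range below all of wild type, and the fungus lowered the gene in wild type. Pfkfb3 fell in wild type by 0.24 on the log2 scale (log2 fold change -0.24, SE 0.03, adjusted p = 0.000112) and moved by 0.02 in the knockout (adjusted p = 0.74). The interaction of 0.26 (SE 0.05, adjusted p = 0.00331) passed under all 21 alternatives run for it. Knockout over wild type gave -0.61 with PBS (adjusted p = 2.45e-07, SE 0.03) and -0.34 with C. albicans (adjusted p = 8.23e-06, SE 0.03). Pfkfb4, a related enzyme, fell in wild type from 23.1 ± 0.751 to 20.1 ± 0.298 TPM (-0.19, adjusted p = 0.00627), and with median-ratio factors the value was -0.11 and did not pass. Its knockout difference with PBS (-0.14, adjusted p = 0.0425) was lost on leaving out any library other than wild-type C. albicans replicate 1 and knockout PBS replicate 2, at -0.11 to -0.16, and with either other scaling (-0.04 and -0.03). Pdk1, the kinase that closes pyruvate dehydrogenase and a known HIF target, passed in no comparison of the reported fit. It averaged 6.15 ± 0.140 TPM in wild-type PBS and 6.92 ± 0.549 TPM in wild-type C. albicans libraries. Its log2 fold change in wild type was 0.14 (adjusted p = 0.137), and 0.21 and past the threshold with median-ratio factors. With upper-quartile factors it was 0.18 and did not pass.

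**Figure D4:**
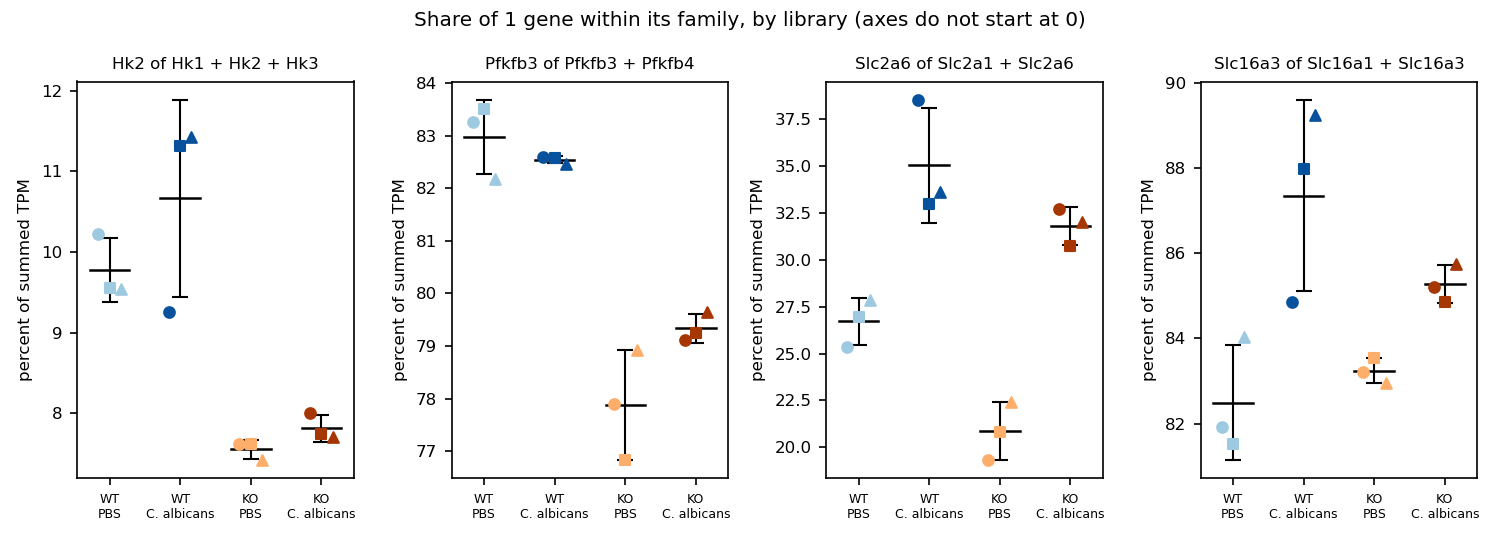
Percent of the summed TPM of a family held by 1 gene (y axes, not from 0), in each of the 12 libraries, with the mean and SD of 3 as line and bar and a symbol for each replicate. The Hk2 share averages 9.77% in wild-type and 7.55% in knockout PBS libraries, the Pfkfb3 share 82.98% and 77.9%, and the Slc2a6 share rises from 26.7% to 35.03% in wild type and from 20.9% to 31.8% in the knockout with C. albicans.

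The plot of shares within families shows how the summed TPM of a family was split between its forms. A share does not show which form changed most in TPM. The Hk2 share of the hexokinases was 9.77% ± 0.396 (SD, n = 3) in wild-type and 7.55% ± 0.116 in knockout PBS libraries, and 10.7% ± 1.22 and 7.81% ± 0.167 with C. albicans, with no library of one genotype in the range of the other. The Slc2a6 share of the 2 glucose transporters was higher with C. albicans in both genotypes, at 35.03% ± 3.06 against 26.7% ± 1.26 in wild type and 31.8% ± 1.02 against 20.9% ± 1.55 in the knockout. The Slc16a3 share of the 2 lactate transporters was 87.4% ± 2.25 in wild-type and 85.3% ± 0.446 in knockout C. albicans libraries, and these overlapped.

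In the HIF pathway, Hif1a (chromosome 12, 73901324 to 73947554) stood at 59.6, 58.0 and 51.0 TPM in wild-type PBS and 70.7, 80.0 and 79.2 TPM in wild-type C. albicans libraries. Knockout libraries read 48.8, 46.8 and 45.5 TPM with PBS and 51.7, 53.3 and 52.7 TPM with C. albicans. Wild-type C. albicans libraries were above all others, and knockout PBS libraries below all others. Hif1a had a log2 rise of 0.44 in wild type (SE 0.06, adjusted p = 9.76e-05), and its value in the knockout was 0.16 (SE 0.06, adjusted p = 0.142). The knockout was lower with C. albicans (-0.53, SE 0.06, adjusted p = 2.69e-05). With PBS it was lower as well (-0.25, adjusted p = 0.00819), but not past the threshold with median-ratio factors (-0.15), upper-quartile factors (-0.13) or the length trend removed (-0.10). The interaction was -0.29 (SE 0.09, adjusted p = 0.0465). Leaving out any library other than wild-type PBS replicate 1 or wild-type C. albicans replicate 1 ended that call, with values of -0.22 to -0.31 and adjusted p of 0.0586 to 0.110. So did upper-quartile factors, no filter, no variance trend, a replicate block or removal of the length trend (adjusted p 0.0548 to 0.0802).

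Egln3 encodes PHD3, a prolyl hydroxylase that is itself a known HIF target. It stood at 1.23, 0.711 and 1.03 TPM in wild-type PBS and 1.49, 2.79 and 3.09 TPM in wild-type C. albicans libraries. In the knockout it stood at 2.12, 1.8 and 1.56 TPM with PBS and 1.23, 0.852 and 1.15 TPM with C. albicans. The order was thus opposite in the 2 genotypes, without overlap in either. Egln3 rose by 0.77 in wild type (SE 0.19, adjusted p = 0.00508), and its value in the knockout was -0.44 (SE 0.19, adjusted p = 0.172). The interaction of -1.22 (SE 0.26, adjusted p = 0.00952) was the largest of any member and passed under all 20 alternatives that kept the gene. With C. albicans the knockout was 0.71 lower (log2 fold change -0.71, adjusted p = 0.00919), and with PBS its value was 0.51 (adjusted p = 0.0539), a comparison that the unclear vehicle touches. The PBS difference passed with median-ratio (0.56) and upper-quartile factors (0.57) and without wild-type C. albicans replicate 1. It was 0.48 and did not pass with the length trend removed. The gene was low, with 14 to 74 reads per library, and log2(TPM + 1) understates its change: with 0.1 in place of 1 the response in wild type was 1.19 and the interaction -1.91, and the authors' deposited table gives 1.39 for the response in wild type.

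The other members of the pathway moved less. Egln1, the main oxygen-sensing hydroxylase (PHD2), fell in wild type from 35.5 ± 0.938 to 31.8 ± 1.91 TPM (log2 fold change -0.16, adjusted p = 0.0392). The call was lost without wild-type PBS replicate 1 or 2, wild-type C. albicans replicate 1 or 3, or knockout C. albicans replicate 2 (-0.11 to -0.17), with either other scaling (-0.08 and -0.11), no filter, a replicate block, the length trend removed or the wild-type libraries alone. Vhl was lower in the knockout with PBS, at 31.0, 32.5 and 28.6 TPM against 36.2, 36.0 and 33.8 TPM (-0.20, adjusted p = 0.0162). That call was lost without wild-type PBS replicate 1 or 2 or knockout PBS replicate 3 (-0.15 to -0.18), and with either other scaling (-0.10 and -0.08).

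Of the 7 tested members that are further hypoxia-inducible genes, 2 rose in wild type and 1 fell, where 16.1% of all genes rose and 28.3% fell. With median-ratio and upper-quartile factors that count of falls was 0 (18.3% and 22.7% of all genes fell). Ndrg1, a stress-response gene known for strong induction by hypoxia, stood at 43.4, 42.0 and 42.5 TPM in wild-type PBS and 45.7, 52.8 and 53.2 TPM in wild-type C. albicans libraries. Knockout libraries gave 41.5, 39.8 and 42.2 TPM with PBS and 38.2, 40.3 and 38.2 TPM with C. albicans. The wild-type C. albicans libraries were the highest of all 12. Ndrg1 rose by 0.24 in wild type (SE 0.06, adjusted p = 0.00421) and moved by -0.08 in the knockout (adjusted p = 0.432), with an interaction of -0.32 (SE 0.08, adjusted p = 0.0194). Without wild-type C. albicans replicate 2 or 3 the interaction was -0.28 and missed the threshold (adjusted p = 0.0526 and 0.0505). With C. albicans the knockout was lower by 0.37 (log2 fold change -0.37, adjusted p = 0.000229).

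Bnip3, a mitophagy receptor, stood at 32.8, 34.7 and 32.2 TPM in wild-type PBS and 32.4, 47.6 and 45.4 TPM in wild-type C. albicans libraries, so replicate 1 lay within the PBS range. Its rise of 0.30 (SE 0.11, adjusted p = 0.0416) was 0.47 without that replicate. It was lost without any other wild-type library, knockout PBS replicate 2 or any knockout C. albicans library (0.20 to 0.33), and with no filter, no variance trend or the wild-type libraries alone. P4ha1, a collagen prolyl hydroxylase subunit, stood at 80.4, 78.6 and 76.3 TPM in wild-type PBS and 63.8, 72.4 and 73.3 TPM in wild-type C. albicans libraries. In the knockout it stood at 65.7, 67.2 and 66.6 TPM with PBS and 65.8, 63.3 and 65.6 TPM with C. albicans. P4ha1 fell in wild type (-0.17, adjusted p = 0.0148) and was lower in the knockout with PBS (-0.23, adjusted p = 0.00305). Its fall in wild type was -0.10 without C. albicans replicate 1, and not past the threshold without PBS replicate 1 (-0.15). Neither call passed with median-ratio factors (-0.09 and -0.14) or upper-quartile factors (-0.13 and -0.12), nor did the fall in a fit to the wild-type libraries alone.

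Vegfa and Mif were higher in the knockout. Vegfa, the vascular growth factor, stood at 54.3, 55.6 and 58.0 TPM in wild-type and 62.9, 64.9 and 67.9 TPM in knockout C. albicans libraries (log2 fold change 0.22, SE 0.04, adjusted p = 0.000975). Its difference with PBS was 0.13 (adjusted p = 0.0285), lost without any 1 wild-type PBS library or knockout PBS replicate 1 or 3 (0.11 to 0.13). Mif, a cytokine that macrophages store, stood at 329.8, 329 and 321 TPM in wild-type and 402, 405 and 377 TPM in knockout C. albicans libraries (0.27, SE 0.04, adjusted p = 0.000404). With PBS the Mif difference was 0.18 (adjusted p = 0.00872), and 0.02 once the length trend was removed. Ankrd37, a small ankyrin repeat gene, was lower in the knockout with C. albicans at 2.96, 3.33 and 3.71 TPM against 4.96, 5.25 and 5.04 TPM (-0.49, adjusted p = 0.02). Without wild-type C. albicans replicate 2 or knockout C. albicans replicate 1 that call was lost (-0.47 and -0.43). Ddit4, an mTOR inhibitor, passed in no comparison with all 12 libraries in the reported fit and ranged from 1.70 to 3.80 TPM. Without wild-type C. albicans replicate 1, it was lower in the knockout with C. albicans. In that fit all 7 tested further hypoxia-inducible members differed there, 2 above wild type and 5 below (15.5% and 26.1% of all genes). Adm reached 0.358, 0.869 and 1.5 TPM in wild-type C. albicans libraries and at most 0.386 TPM in any other library, from 0 to 17 reads, and the authors' deposited table calls it higher in wild type with C. albicans.

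Wild-type C. albicans replicate 1 lay on the low side for these genes. Its level was the lowest of its group for 24 of the 35 tested members (68.6%), where it was the lowest for 28.3% of all tested genes. Among the 11 tested HIF pathway and further hypoxia-inducible members it was the lowest for 9. In log2(TPM + 1), the rise of Slc2a1 over the wild-type PBS mean was 0.40 in replicate 1 and 1.14 in replicates 2 and 3, that of Egln3 0.33 and 0.99, and that of Slc2a6 1.14 and 1.56. Ddit4 stood at -0.62 in replicate 1 and 0.17 in the others, and Pfkl at -0.34 and 0.28. Without this library, 12 members rose in wild type and 10 fell (16.7% and 31.3% of all genes), and 17 members passed the interaction, 3 above 0 and 14 below (13.0% and 9.39% of all genes). The knockout response then had 2 rises and 7 falls (5.88% and 7.30% of all), and the knockout effect with C. albicans 8 members above and 16 below (15.5% and 26.1% of all). The knockout counts, whose own libraries were the same, went up as the spread shared by all groups was smaller. The 14 members below 0 in the interaction then held the 4 named above and 10 others, which were Slc2a6 (-0.58), Bnip3 (-0.45), Slc16a3 (-0.42), Pgk1 (-0.33), Pfkl, Aldoa, Pgam1, Gapdh, Eno1 and Pkm (-0.10). Which of the 3 libraries is nearer the usual response was not tested.

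**Figure D5:**
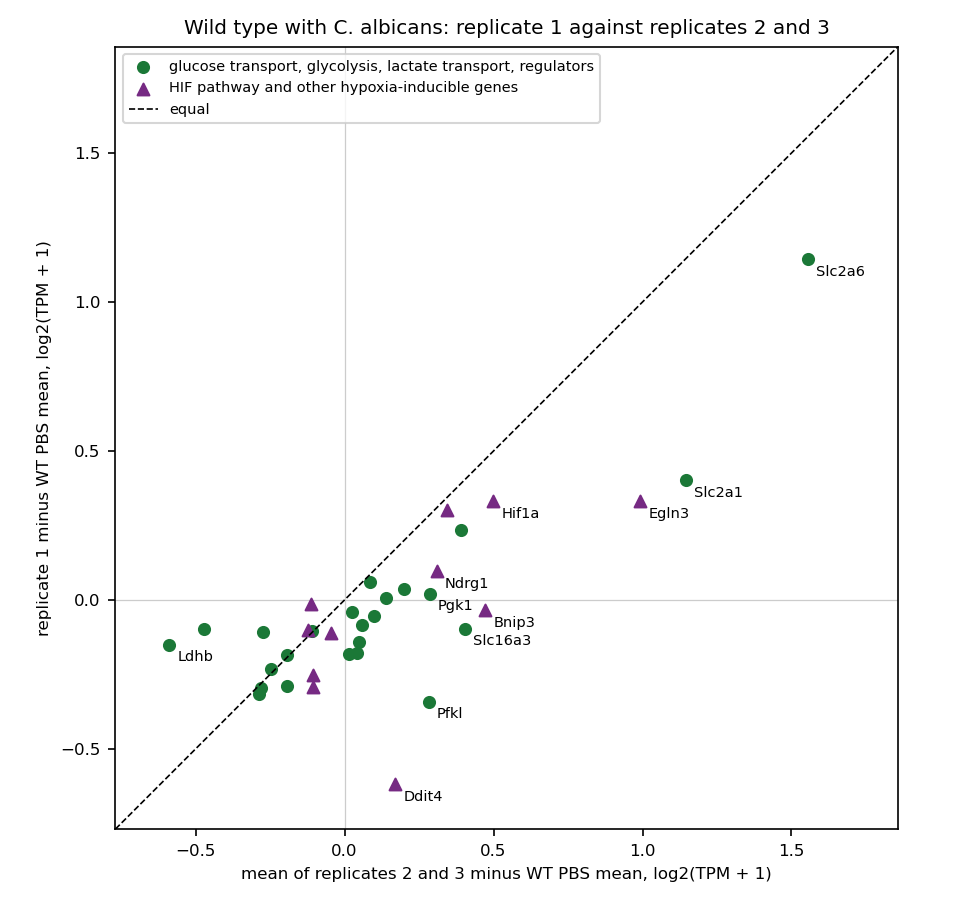
Difference from the wild-type PBS mean in log2(TPM + 1) for each of the 35 tested members, in wild-type C. albicans replicate 1 (y axis) and the mean of replicates 2 and 3 (x axis); green circles are genes of glucose and lactate transport, glycolysis and its regulators, purple triangles HIF pathway and further hypoxia-inducible genes. Most points lie below the dashed line of equal values, Slc2a1, Egln3 and Ddit4 far below it.

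The authors' deposited table holds 1 comparison, which by its values is C. albicans over PBS in wild type. There, 12 of the 36 members were higher at an adjusted p under 0.05 and 5 were lower, where 18.6% and 14.1% of the 13587 genes with an adjusted p were. The table gives log2 fold changes of 1.57 for Slc2a6, 1.04 for Slc2a1, 0.53 for Hif1a and -0.16 for Pfkfb3. It uses the same wild-type libraries as the wild-type response above, with another scaling and model, so it is no separate test.

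Other genes of the same pathways were counted from lists that hold no member. Of 24 further hypoxia-inducible genes that passed the filter, 8 rose and 5 fell in wild type (16.1% and 28.3% of all genes). In the knockout with C. albicans 3 were above and 12 below wild type (12.4% and 27.5% of all genes), and 6 and 7 with upper-quartile factors (25% and 18% of all). Rbpj, the DNA-binding partner of Notch, rose from 40.4 ± 1.63 to 86.5 ± 7.22 TPM in wild type (log2 fold change 1.08, adjusted p = 6.55e-08) and from 31.4 ± 2.58 to 45.1 ± 0.637 TPM in the knockout (0.51, adjusted p = 0.000297), with an interaction of -0.56 (adjusted p = 0.00189). Ero1a, an oxidase of the endoplasmic reticulum, rose in wild type (0.43, adjusted p = 0.000569) and moved by 0.01 in the knockout, with an interaction of -0.42 (adjusted p = 0.0201). Plod1, a collagen lysyl hydroxylase, fell in wild type from 239 ± 8.65 to 168 ± 9.30 TPM (-0.51, adjusted p = 9.75e-07) and moved by -0.04 in the knockout, with an interaction of 0.47 (adjusted p = 0.000272). Of 10 further HIF pathway genes 1 rose and 3 fell in wild type, and 4 rose and 1 fell with median-ratio factors (22.8% and 18.3% of all genes). Ep300, a coactivator of HIF-1, was lower in the knockout with PBS (-0.48, adjusted p = 1.07e-05) and with C. albicans (-0.62, adjusted p = 5.31e-07). Arnt, the HIF-1 beta subunit, was lower there with PBS (-0.31, adjusted p = 0.000357) and with C. albicans (-0.15, adjusted p = 0.0222). The Arnt call with C. albicans was lost with median-ratio factors (-0.09) or without wild-type C. albicans replicate 1 (-0.12).

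Of 25 further genes of glycolysis and pyruvate handling, 3 rose and 7 fell in wild type (16.1% and 28.3% of all genes), and 1 fell in the knockout (3.14% of all). Pdp1, the phosphatase that opens pyruvate dehydrogenase, fell in wild type from 30.3 ± 2.42 to 16.9 ± 1.54 TPM (-0.81, adjusted p = 1.19e-06) and by 0.26 in the knockout (-0.26, adjusted p = 0.0338), with an interaction of 0.54 (adjusted p = 0.00248). Mpc1, a subunit of the mitochondrial pyruvate carrier, rose in wild type from 13.8 ± 1.53 to 22.0 ± 0.952 TPM (0.64, adjusted p = 0.00011) and moved by -0.05 in the knockout, with an interaction of -0.70 (adjusted p = 0.00344). Of 7 pentose phosphate genes 2 rose in wild type and 1 fell. Taldo1, transaldolase, rose in wild type (0.22, adjusted p = 0.00109) and was higher in the knockout with PBS (0.35, adjusted p = 8.37e-05). Of 22 genes of the citrate cycle and its side branches 2 rose and 9 fell in wild type, and 5 and 6 did with median-ratio factors (22.8% and 18.3% of all genes). Acod1, the enzyme that makes itaconate from a cycle intermediate, rose from 59.3 ± 1.09 to 403 ± 77.0 TPM in wild type (2.72, adjusted p = 3.8e-10) and from 37.6 ± 0.909 to 117 ± 2.72 TPM in the knockout (1.61, adjusted p = 2.91e-07), with an interaction of -1.11 (adjusted p = 0.000318). The isocitrate dehydrogenase genes Idh1 (-0.30), Idh2 (-0.29), Idh3b (-0.22) and Idh3g (-0.26) fell in wild type, with adjusted p of 0.000125 to 0.00174, and none of the 4 passed in the knockout. Their interaction passed for Idh1 (0.22, adjusted p = 0.0347), Idh2 (0.34, adjusted p = 0.0182) and Idh3b (0.21, adjusted p = 0.0174). It did not for Idh3g (0.15, adjusted p = 0.0737), nor for Idh1 with median-ratio factors (0.18).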

How the data were processed

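The members and all gene lists were chosen with earlier results of these data known. The submitters' processing notes name STAR 2.7.5a, cutadapt 2.6, DESeq2 1.34.0, CASAVA 1.8 and the build mm10. The sources used here do not name the program that counted reads, its annotation or its strand setting. The authors deposited TPM values for 25230 genes in 12 libraries, and each column sums to 1000000. Per the file headers, the authors' DESeq2 columns hold the p-value (raw and adjusted), the Wald score, the log2 fold change and its error, and the mean signal after normalisation. Whole reads were recovered from TPM and mean signal: 100% of 60427 nonzero values under 100 reads lay within 0.01 of a whole read. They served for depth and lengths, not for tests. Of all reads, 0.00132% fell on 28 genes that have no symbol.

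limma 3.58.1 in R 4.3.3, with the variance trend on, was fitted to log2(TPM + 1) with 1 mean per group over all 12 libraries and 8 residual degrees of freedom. Genes reaching 1 TPM in 3 or more libraries (11283) were tested, two-sided, with Benjamini-Hochberg adjustment within each of 5 comparisons and a threshold of 0.05. The fit was tested on simulated data. Those reads had the same spread in all groups, so they do not test a library that departs from its group. No result here rests on them. Fold changes on this scale understate those of low genes. The alternatives were other scalings, pseudocount, filters, spread estimates, a replicate block, removal of the length trend, and each library left out. Values in every library are given for the 5 members with the smallest adjusted p in each comparison and for Slc2a1, Hk2, Pfkfb3, Pkm, Ldha, Gapdh and Hif1a, and for others where a sentence turns on them. Of each list of other pathway genes, up to 3 with the smallest adjusted p in the wild-type response and in the interaction could be named. Promoters came from RefSeq (GRCm38.p6, the assembly that mm10 names).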

Additional observations from a re-analysis of the deposited data

Results flagged for a closer look

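For 6 of the 35 tested members, and for 13.9% of all genes, the response to C. albicans differed between the genotypes. The test was limma's interaction (adjusted p under 0.05, all 12 libraries), given as the knockout's log2 fold change less that of wild type. It was -1.22 for Egln3, -0.69 for Slc2a1, -0.32 for Ndrg1 and -0.29 for Hif1a, which rose in wild type and did not pass in the knockout with all 12 libraries. For Pfkfb3, which fell in wild type and moved by 0.02 in the knockout, it was 0.26. For Gpi1, which fell in both genotypes, it was 0.16. The values of Egln3 and Pfkfb3 passed under every alternative run for them, while those of the other 4 did not. The knockout PBS libraries, whose titles name DMSO, enter each of these differences.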

How the results depend on the processing

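Of 56 calls of single members over the 5 comparisons, 30 kept their direction and their side of the threshold under all alternatives run (22, or 21 for the interaction, where a fit to only the groups compared is the reported fit) and 26 lost the threshold under at least 1. None was called in the opposite direction; values that passed nowhere could change sign and were not counted. Members that fell in wild type numbered 10, and 5 and 6 with median-ratio and upper-quartile factors (28.3%, 18.3% and 22.7% of all genes). In the knockout with PBS the 7 members above wild type (6.14% of all genes) became 11 and 12 (14.2% and 16.2%). They were 3 with the length trend removed (3.09%). The 7 below (26.1% of all) became 3 and 3 with these scalings (14.1% and 12.6%). With C. albicans the 6 above became 13 with upper-quartile factors (12.4% and 25% of all genes). In the knockout response, the 1 rise (3.94% of all genes) became 2 with only the groups compared (5.57%). The 1 fall (3.14% of all) became 0 with median-ratio or upper-quartile factors (1.52% and 2.02%) or the variance trend off. It became 6 with only the groups compared (6.4%) and 2 with the length trend removed (2.89%). In the interaction, the 2 above 0 (7.52% of all genes) became 1 with median-ratio factors (5.88%) or the trend off. The 4 below 0 (6.33% of all) became 2 with upper-quartile factors (6.71%), no filter or the trend off. They became 6 with the length trend removed (6.51%). Shares of all genes were not counted for the fits with no filter or the trend off. By median-ratio factors and by upper-quartile factors, rises were 78.0% and 69.7% of all genes called in the knockout response (55.7% as reported), 50.2% and 56.3% of those called for the knockout with PBS (19.0%), 46.9% and 58.1% with C. albicans (31.1%), and 41.2% and 51.8% in the interaction (54.3%).

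Leaving out 1 library at a time gave 5 to 12 rises and 8 to 11 falls in wild type, 1 to 2 and 0 to 7 in the knockout, 5 to 11 above and 5 to 8 below in the knockout with PBS, 6 to 8 and 8 to 16 with C. albicans, and 1 to 3 above and 1 to 14 below 0 in the interaction. The highest counts came without wild-type C. albicans replicate 1, other than the 11 falls in wild type. Without that library 11 members were above and 8 below in the knockout with PBS (7.67% and 29.8% of all genes). Shares of all genes were not counted with any other library left out, so those counts are no result about the members as a set. Of the 56 calls, 39 held whichever library was left out.

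Replicate numbers gave no sign of pairing: over 18 pairs of same-numbered libraries the correlation of deviations from group means was -0.087 to 0.087. Most of these pairs cross genotypes, and deviations from means of 3 libraries test pairing only weakly. The labels do not say whether libraries were paired. With the replicate number as a block, the counts above and below 0 were 8 and 8 in wild type. In the knockout they were 1 and 1. They were 7 and 6 for the knockout with PBS, 6 and 10 with C. albicans, and 2 and 5 in the interaction. Shares of all genes were not counted for that fit.

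With 3 libraries a group, small differences of abundant enzymes rest on the spread shared over groups. In low genes, such as Egln3 (14 to 74 reads) and Ldhb (35 to 109 reads), counting error limits the precision. TPM fold changes are relative to the total, and the scaling sets the sign of small ones.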
